A study of Mus musculus with 42 samples.

Results

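Whole nodose ganglia (NG) were compared with whole dorsal root ganglia (DRG) of BALB/c mice, across all probe sets of the MG-U74Av2 array that are not controls. The comparison took 12 of the 42 samples of the series, chosen by the letter that ends their titles and marks the whole-ganglion experiment: 7 NG samples and 5 DRG samples. Both groups came from BALB/c mice, an inbred laboratory strain, under normal housing, and no genotype, treatment, age or sex was given for either. Ganglia were lysed whole, and about 12 µg of total RNA per sample was labelled as biotinylated cRNA. The sample descriptions call every sample laser captured, but the extraction protocol for these 12 names whole ganglia, and that protocol was followed. The labels do not state whether the samples of a group came from different animals, so a p-value reflects the spread among these arrays, part of which may be technical. A second set of arrays of the same type held 5 NG and 5 DRG samples of about 150 laser-captured neurons each. These samples carried other numbers and served to show how the same genes differed in captured neurons. The sets were separate experiments, so the removal of other cells cannot be told apart from other differences between them.

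The NG holds the cell bodies of vagal sensory neurons, which innervate the heart, lungs and gut and arise from epibranchial placodes. The DRG holds those of spinal sensory neurons, which innervate skin, muscle and viscera and arise from the neural crest. In both ganglia the neurons are wrapped by satellite glia, their axons are accompanied by Schwann cells, and the tissue holds capillaries, connective tissue sheaths and resident macrophages. A probe set reads all of these cells together, so in whole ganglia fewer cells of a type and less RNA per cell cannot be told apart.

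The arrays separated by ganglion on the first principal component, which held 48.6% of the variance, with NG from 7.06 to 23.95 and DRG from -27.77 to -24.91. NG sample 073 lay nearest to DRG, at 7.06, and had the lowest correlation with its own group (median 0.958). In 3 NG samples (023, 026 and 046) genes of fat tissue were high, as described below, and NG sample 026 also had the highest sums of muscle and blood genes. The 3 prime over 5 prime log2 ratio of the beta actin control was 2.94 ± 0.40 in NG (SD, n = 7) and 2.80 ± 0.08 in DRG (SD, n = 5; exact permutation p = 0.497, two-sided). For the Gapdh control that ratio was 5.50 ± 0.45 in NG and 5.33 ± 0.12 in DRG (SD, exact permutation p = 0.423, two-sided). Both controls thus read far higher at the 3 prime end than at the 5 prime end in both groups. NG samples 023, 026 and 046 had the highest ratios of all 12, at 3.14, 3.29 and 3.44 for beta actin, against 2.26 to 2.88 in the other 4 NG samples and 2.68 to 2.89 in DRG. Their deposited trimmed means were also the lowest, at 174.9, 202.1 and 182.6, against 219.2 to 408.3 in the other 4 NG samples and 286 to 344.5 in DRG. The part of these array qualities in the results was not tested beyond leaving the 3 samples out. Of 7698 probe sets that passed a filter on dim signals, limma called 1508 in favour of NG and 1219 in favour of DRG at an adjusted p under 0.05, together 35.4%. The majority turned with the scaling, with 1339 in favour of NG and 1347 in favour of DRG after quantile normalization, and 1020 and 1532 with equal medians. The counts were 1117 and 990 without the 3 samples with high fat genes, and 1600 and 1304 without NG sample 073.

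Of 5897 genes, each read from 1 probe set, 1215 were higher in NG (20.6%) and 997 were higher in DRG (16.9%). These shares are the background for every count of list members below. At least 2-fold differences were found for 160 and 131 of them, and at least 4-fold differences for 23 and 19. The 7 NG values and the 5 DRG values did not overlap for 1161 genes (19.7%), of which 1155 were called. The values below are scaled signals, that is, array intensities after each array was brought to the same trimmed mean, and differences are NG minus DRG on the log2 scale.

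The largest difference in favour of NG was that of Ddc, an enzyme of dopamine and serotonin synthesis. It had signals from 1215 to 2114 (median 1786) in NG, against 31.1, 29.9, 57.2, 30.8 and 41.8 in DRG samples 019, 026, 037, 070 and 084 (log2 difference 5.04, SE 0.16). The choice of the genes with the largest differences required groups that did not overlap. For Ddc the highest DRG sample was far below the lowest NG sample. The proton-sensing receptor Gpr65 read from 474 to 792 in NG (median 574) and 14.6, 21.2, 5.92, 11.7 and 18.1 in DRG, where every value lay below the filter. Crhr2, the receptor for urocortins, had signals of 272 to 409 in NG (median 362), against 9.76, 12.3, 10.9, 22.5 and 4.98 in DRG. The neurotensin receptor Ntsr1 read 250 to 489 in NG (median 321), against 14.3, 8.94, 7.76, 12.6 and 16.1 in DRG. For Gpr65, Crhr2 and Ntsr1 the DRG values lay below the filter on all 5 arrays, so their folds depend on the pseudocount of 12.3 that was added before the log.

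Htr3a, part of an ion channel through which serotonin excites vagal afferents, had a high signal in both ganglia. It read 3724 to 5158 in NG (median 4765), against 458, 566, 583, 602 and 599 in DRG (difference 3.02, SE 0.10, adjusted p = 7.7e-13). Cckar, the receptor through which cholecystokinin from the gut acts on vagal endings, read 1695 to 2323 in NG (median 1920), against 466, 477, 558, 349 and 424 in DRG (2.10, SE 0.12). The receptor tyrosine kinase Ltk had signals of 922 to 1347 in NG (median 1098), against 180, 167, 136, 115 and 236 in DRG (2.73, SE 0.14). The formin Fhod3 (2.53, SE 0.13), the endophilin Sh3gl3 (2.56, SE 0.16), the efflux pump Abcb1a (2.10, SE 0.16) and the imprinted gene Nnat (2.32, SE 0.22) were higher in NG as well. Cavin2, a coat protein of caveolae, completed the set (3.09, SE 0.14) with Syt17, Hoxb5 and Myl1, which are described under their families.

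**Figure D1:**
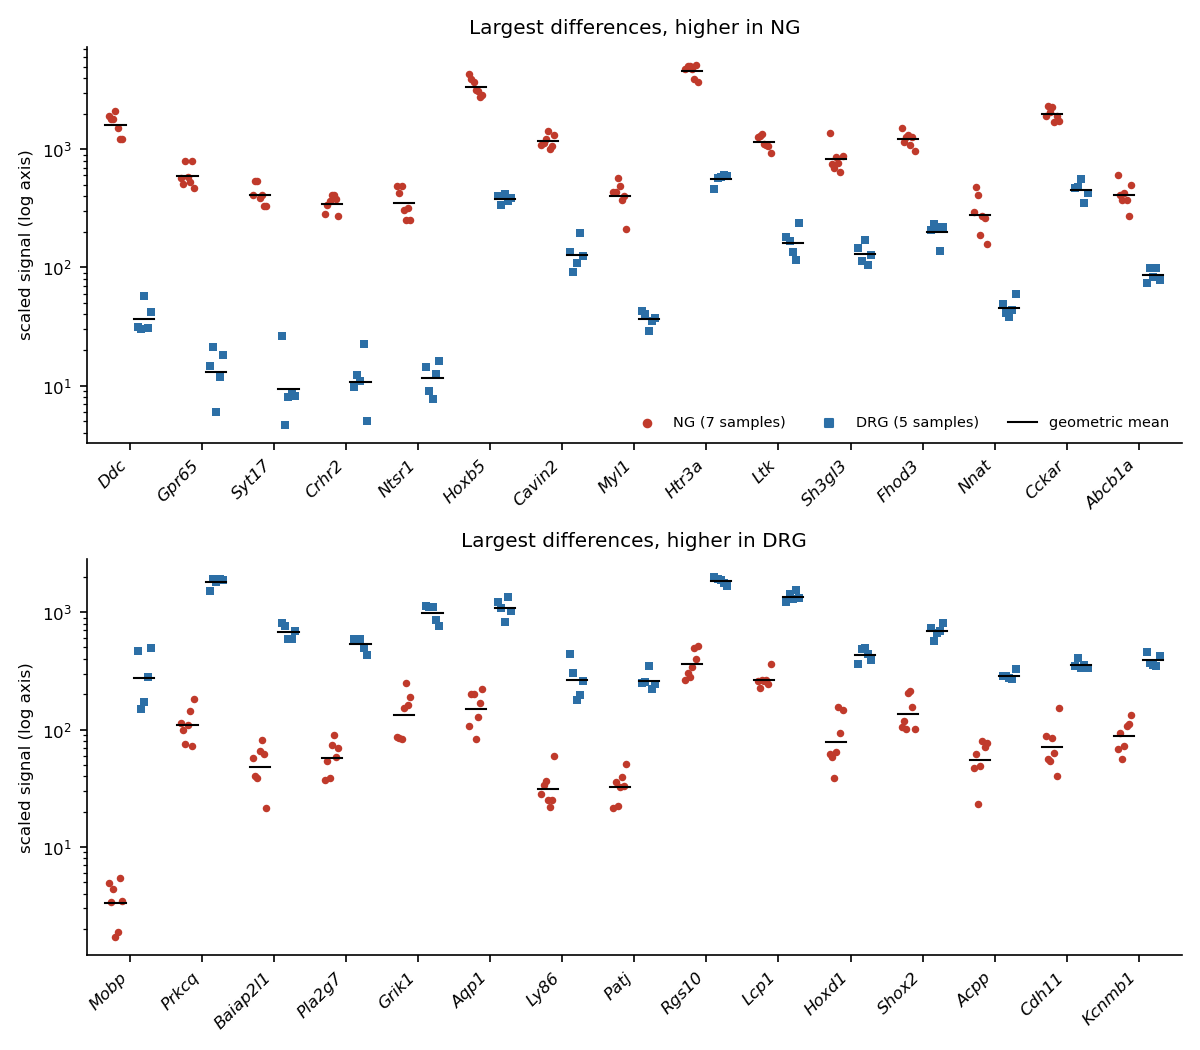
Scaled signal (log axis) of the 15 genes per direction with the largest difference, by sample, with 7 NG samples as circles on the left of each gene, 5 DRG samples as squares on the right, and bars at the geometric mean. The 2 groups do not overlap for any gene shown, which the choice of these genes required.

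On the DRG side, the protein kinase C isoform Prkcq had signals of 71.8 to 184 in NG (median 110), against 1527, 1925, 1797, 1924 and 1867 in DRG (-3.90, SE 0.18). The kainate receptor subunit Grik1 read 82.9 to 247 in NG (median 151), against 1136, 1113, 1108, 851 and 764 in DRG (-2.77, SE 0.24). The water channel Aqp1 read 82.8 to 223 in NG (median 169), against 1209, 1088, 829, 1351 and 1028 in DRG (-2.75, SE 0.20). As on the NG side, the choice of these genes required groups that did not overlap. The G protein regulator Rgs10 read 264 to 518 in NG (median 343), against 1981, 1921, 1862, 1761 and 1679 in DRG (-2.31, SE 0.15), and the actin-bundling protein Lcp1 read 227 to 364 (median 261), against 1231, 1428, 1299, 1540 and 1316 (-2.30, SE 0.11). Lcp1 and Rgs10 are also used by leukocytes, and both were higher in DRG among captured neurons too (-1.99, SE 0.27, and -2.85, SE 0.21). Averaged over both ganglia, captured minus whole signal was -0.79 for Lcp1 and -1.49 for Rgs10, so both were dimmer in captured neurons. Acpp, the acid phosphatase of small sensory neurons, had signals of 23.4 to 80.2 in NG (median 62.1), against 287, 284, 277, 271 and 327 in DRG (-2.14, SE 0.19). Baiap2l1 (-3.50, SE 0.20), Pla2g7 (-2.95, SE 0.17), Patj (-2.60, SE 0.17) and the cadherin Cdh11 (-2.13, SE 0.21) completed the set with Kcnmb1 and the genes described under their families.

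The called genes of vagal afferents and placodal neurons were all higher in NG, and those of nociceptors and large-diameter afferents were all higher in DRG. Of 30 genes in the vagal list 17 were tested, and 12 were higher in NG and 0 in DRG, against 20.6% and 16.9% of all genes (12 to 14 when 1 sample was left out, 12 without the 3 samples with high fat genes). Among its transcription factors, Tbx3 read 155 to 251 in NG (median 187), against 44.2, 41.3, 46.8, 52.4 and 70.2 in DRG (1.69, SE 0.15). Gata3 was dimmer, at 45.9 to 70.2 in NG (median 57) and 4.86, 16.1, 22.6, 9.53 and 21.9 in DRG (1.38, SE 0.20). Phox2a, a determinant of visceral neurons, did not pass the filter and had no test; it read 11.1 to 90.6 in NG, against 5.13 to 8.16 in DRG. Ptger4, a prostaglandin E2 receptor, read 408 to 866 in NG (median 537), against 228, 384, 278, 425 and 281 in DRG (0.80, SE 0.17), and these groups overlapped. The members that were not called were Npy2r, Eya1, Eya2, Six4 and Tlx3, with differences from -0.13 to 0.65. The list was put together with earlier results of these arrays known, so its direction is not independent evidence.

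Of 22 genes of nociceptors 7 were tested, and 0 were higher in NG and 5 in DRG, against 20.6% and 16.9% of all genes. Osmr, through which itch neurons sense oncostatin M, read 193 to 314 in NG (median 228), against 993, 1078, 852, 1156 and 704 in DRG (-1.94, SE 0.14). Nppb, the natriuretic peptide of the same neurons, read 27.4 to 39.9 in NG (median 30.0), against 152, 132, 101, 152 and 111 in DRG (-1.68, SE 0.14). Tac1, the precursor of substance P, read 505 to 1256 in NG (median 622), against 1397, 1659, 1370, 1639 and 1583 in DRG (-1.12, SE 0.19). Scn10a, the sodium channel of nociceptors, was bright in both ganglia, at 2237 to 3374 in NG (median 2854) and 4012, 4625, 4016, 4767 and 3400 in DRG (-0.54, SE 0.10). Gfra2 (-0.67, adjusted p = 0.0833) and Ret (-0.14, adjusted p = 0.693), 2 receptor genes of the GDNF family, were not called.

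Of 26 genes of large-diameter afferents, the mechanoreceptors and proprioceptors, 13 were tested. Of these 0 were higher in NG and 8 in DRG, against 20.6% and 16.9% of all genes (7 to 9 in DRG when 1 sample was left out). The homeobox factor Shox2 read 101 to 215 in NG (median 119), against 737, 569, 670, 686 and 809 in DRG (-2.23, SE 0.18). Pvalb, the calcium-binding protein of proprioceptors, read 459 to 930 in NG (median 667), against 1221, 1047, 1201, 1189 and 1422 in DRG (-0.85, SE 0.13). Of the neurofilament genes, Nefh read 2197 to 2806 in NG (median 2661), against 4062, 3730, 4148, 3672 and 3688 in DRG (-0.59, SE 0.08), and Ina was lower in NG by a larger margin (-1.78, SE 0.12), while Nefl (0.08) and Nefm (-0.33) were not called. Calb1, which encodes calbindin, read 39.6 to 67.7 in NG (median 53.4), against 209, 170, 269, 188 and 234 in DRG (-1.79, SE 0.15). The potassium channel Kcna1 (-0.44, SE 0.12) and the sodium channel Scn1a (-0.72, SE 0.18) differed less.

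General neuronal genes did not favour either ganglion. Of 28 such genes 22 were tested, of which NG had 5 higher and DRG also 5, near the 20.6% and 16.9% of all genes. Their median difference was 0.04, against 0.05 over all genes tested. Gap43, a growth cone protein, read 3500 to 4694 in NG (median 3921), against 2263, 2792, 2202, 2266 and 2166 in DRG (0.76, SE 0.09). Vamp2, a synaptic vesicle protein, read 1311 to 1962 in NG (median 1789), against 3180, 2832, 2522, 3062 and 2994 in DRG (-0.73, SE 0.10), and the secretory granule protein Chgb read 1772 to 2122 in NG (median 2005), against 2950, 2889, 3380, 2867 and 2852 (-0.60, SE 0.08). The calcium sensor Vsnl1 (-1.48, SE 0.14) was lower in NG. The defining neuronal markers differed little: Uchl1 (0.19), Stmn2 (0.02) and Isl1 (0.25) were not called, and the differences of Snap25 (0.39, SE 0.12), Prph (0.32, SE 0.10) and Tubb3 (-0.23, SE 0.08) were small. The call of Tubb3 was lost without any 1 of DRG samples 019, 026, 070 and 084 or NG samples 026, 039 and 073 (adjusted p from 0.0516 to 0.0927), and that of Snap25 without DRG sample 026 (0.058). The summed signal of the 22 genes was 54980 to 65500 in NG and 58360 to 60560 in DRG, so these ranges overlapped. Over all 4 neuronal lists 59 genes were tested, with 17 higher in NG and 18 in DRG.

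Ligand-gated and potassium channel genes were called about as often as genes in general, of which 20.6% were higher in NG and 16.9% in DRG. Of 19 ligand-gated channel subunits tested, 3 were higher in NG and 4 in DRG. Among the AMPA receptor subunits, Gria2, which limits calcium entry, read 746 to 1232 in NG (median 975), against 262, 291, 398, 389 and 333 in DRG (1.51, SE 0.14), and Gria3 read 45.9 to 87.4 in NG (median 66), against 21.1, 18.3, 23.4, 21.4 and 23.6 in DRG (1.18, SE 0.16). Gria1 went the other way, at 82.8 to 149 in NG (median 95.5) and 315, 278, 292, 264 and 309 in DRG (-1.38, SE 0.14). The GABA-A receptor subunit Gabra2 read 50.5 to 89.2 in NG (median 70), against 281, 264, 292, 253 and 305 in DRG (-1.85, SE 0.13), and the acid-sensing channel subunit Asic2 differed by -0.59 (SE 0.13).

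Of 20 potassium channel genes tested, 3 were higher in NG and 5 in DRG. Kcnmb1, an accessory subunit of the large-conductance calcium-activated channel, read 56.6 to 132 in NG (median 94.3), against 455, 370, 355, 347 and 422 in DRG (-1.99, SE 0.17). Kcnn1, a small-conductance calcium-activated channel, read 353 to 448 in NG (median 401), against 1283, 1104, 1269, 1062 and 1114 in DRG (-1.52, SE 0.10). Kcnma1, the pore of the large-conductance channel, was not called (-0.40). Of the NG-higher ones, Kcnk2, a background channel gated by stretch and lipids, read 1003 to 1282 in NG (median 1118), against 677, 707, 626, 1100 and 855 in DRG (0.51, SE 0.12). The NG count was 1 without any 1 of DRG samples 037 and 070 and NG samples 023 and 039, and likewise with equal medians. Of 4 sodium channel genes tested 0 were higher in NG and 3 in DRG, against 20.6% and 16.9% of all genes. The DRG count was 2 or 3 when 1 sample was left out. The call of Scn8a was lost in several settings, among them without the 3 samples with high fat genes (-0.31, limma adjusted p = 0.222). Of 4 TRP channel genes Trpc4 alone was called, with 219 to 467 in NG (median 314) and 67.2, 69.1, 80.7, 89.4 and 91.3 in DRG (1.84, SE 0.16). Of 7 synaptotagmins, calcium-sensor proteins of vesicles, Syt17 read 328 to 543 in NG (median 407), against 26.3, 4.64, 7.93, 8.75 and 8.09 in DRG (4.25, SE 0.19), Syt4 was higher in NG (0.52, SE 0.13) and Syt5 was higher in DRG (-0.89, SE 0.11).

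The Hox genes, homeobox factors whose order along each chromosome cluster mirrors the body axis from head to tail, differed by cluster. Of 31 on the array 17 were tested, and 3 were higher in NG and 8 in DRG, against 20.6% and 16.9% of all genes. The 3 NG-higher ones were neighbours in the HoxB cluster. Hoxb5 read 2756 to 4340 in NG (median 3171), against 400, 338, 415, 364 and 385 in DRG (3.11, SE 0.11, adjusted p = 1.5e-12). Hoxb4 read 53.6 to 90.9 in NG (median 78.3), against 6.27, 6.07, 7.54, 18.4 and 9.05 in DRG (2.02, SE 0.18), and Hoxb6 read 354 to 505 in NG (median 459), against 240, 176, 176, 145 and 227 in DRG (1.15, SE 0.13). The next gene of that cluster turned round: Hoxb7 read 50.1 to 93.3 in NG (median 52), against 121, 126, 109, 81.8 and 121 in DRG (-0.79, SE 0.16). Hoxb8 was not called (0.20).

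In the other 3 clusters every called Hox gene was higher in DRG. Hoxa7 read 7.3 to 14.1 in NG (median 9.92), against 164, 152, 112, 143 and 120 in DRG (-2.74, SE 0.16). Hoxa9 (-1.46, SE 0.20), Hoxc9 (-1.56, SE 0.20) and Hoxd8 (-1.51, SE 0.15) carried high paralogue numbers, which are those used in the trunk. Hoxa5 (-0.83, SE 0.16) and Hoxc6 (-1.07, SE 0.24) lay in the middle. Hoxd1, at the head end of its cluster, did not follow that order: it read 38.6 to 154 in NG (median 64.8), against 359, 487, 498, 441 and 392 in DRG (-2.27, SE 0.25). Hoxa2 (0.30), Hoxa4 (0.21), Hoxc4 (0.41), Hoxa6 (-0.31) and Hoxc8 (-0.22) were not called. Several of these genes were dim, and with a filter at the median of each array 4 Hox genes were called higher in DRG.

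**Figure D2:**
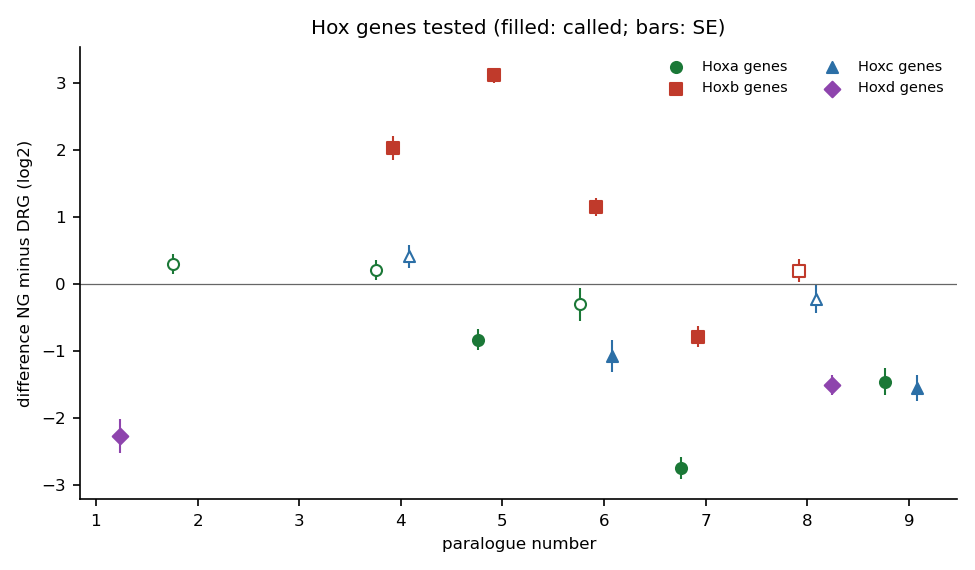
Difference NG minus DRG (log2, vertical axis) of the 17 Hox genes tested, by paralogue number, with colour and shape for the cluster, bars for the SE, and filled symbols for called genes. Hoxb4, Hoxb5 and Hoxb6 lie above 1, and the called genes of the other clusters lie between -2.74 and -0.83.

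Glial genes were called about as often as genes in general, of which 20.6% were higher in NG and 16.9% in DRG. Over the lists of satellite glia, Schwann cells and myelinating Schwann cells, 32 genes were tested, of which 6 were higher in NG, 6 were higher in DRG and 20 were not called (median difference -0.01). The defining markers of satellite glia were not called: Fabp7, a fatty acid binding protein, read 1655 to 2831 in NG and 1606 to 3117 in DRG (-0.04), the gap junction protein Gja1 differed by 0.09 and the glutamine synthetase Glul by 0.07 (0.60 as the mean over its tested probe sets). Sox10, the factor that defines peripheral glia, read 387 to 703 in NG and 306 to 567 in DRG (0.11, SE 0.16). Among the 9 genes of myelinating Schwann cells tested, 0 were higher in NG and 2 in DRG (median difference -0.16). Pmp22, a defining gene of that list, read 2858 to 4096 in NG and 3756 to 4757 in DRG and was called higher in DRG. That call was lost in several settings, among them without DRG sample 019 or 070 (adjusted p = 0.119 and 0.131 by limma). The myelin gene Mbp read 1589 to 2508 in NG, against 2588, 1820, 2201, 2931 and 2316 in DRG (-0.28, adjusted p = 0.087; adjusted p = 0.0311 without the 3 samples with high fat genes; -0.61 as the mean over its tested probe sets).

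Single glial genes did separate the ganglia. Sox2, a factor of satellite glia and glial precursors, read 407 to 575 in NG (median 485), against 285, 209, 222, 304 and 289 in DRG (0.86, SE 0.13). The adhesion molecule Ncam1 read 3329 to 4472 in NG (median 4216), against 2035, 2507, 2132, 2555 and 1895 in DRG (0.87, SE 0.10), and the matrix protein Matn2 read 765 to 1114 in NG (median 891), against 494, 520, 701, 615 and 445 in DRG (0.68, SE 0.12). S100b, a calcium-binding protein of Schwann cells, read 667 to 1093 in NG (median 850), against 1635, 1447, 1423, 1494 and 1581 in DRG (-0.82, SE 0.12). The membrane protein Gpm6b read 402 to 690 in NG (median 650), against 1000, 840, 988, 1279 and 1034 in DRG (-0.81, SE 0.14). S100b and Gpm6b are also made by neurons, and both were higher in DRG among captured neurons (-1.59, SE 0.17, and -1.65, SE 0.18). Captured minus whole signal was -0.35 for S100b and -1.46 for Gpm6b.

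The probe set with the largest difference in favour of DRG was named Mobp, a myelin-associated gene of oligodendrocytes in the central nervous system. It read 1.7 to 5.4 in NG (median 3.45), against 470, 148, 171, 278 and 496 in DRG (-4.20, SE 0.26, adjusted p = 1.62e-09). Mog, a defining oligodendrocyte marker, lay below the filter in both ganglia, at 2.65 to 8.93 in NG and 3.79 to 16.4 in DRG. This difference rests on 1 of 4 Mobp probe sets: the other 3 did not pass the filter, and they read 1.08 to 39.5 in NG and 2.41 to 33.4 in DRG. The part of central nervous tissue at the spinal roots in this signal was not tested beyond Mog and Cldn11, which read 15.8 to 40.7 in NG and 22.1 to 32.7 in DRG.

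Vascular genes leaned towards NG. Of 24 tested 9 were higher in NG and 3 in DRG, against 20.6% and 16.9% of all genes. Of 15 endothelial genes tested, 8 were higher in NG and 1, the glucose transporter Slc2a1 (-0.43, SE 0.12), was higher in DRG (6 to 8 in NG when 1 sample was left out, and 6 without the 3 samples with high fat genes, whose part in these calls was not tested further). Eng, a co-receptor of the TGF-beta family, read 494 to 1157 in NG (median 833), against 421, 386, 273, 453 and 435 in DRG (0.93, SE 0.20). The tight junction gene Cldn5 read 75.9 to 123 in NG (median 96.9), against 55.0, 52.6, 44.4, 32.5 and 59.1 in DRG (0.88, SE 0.15), and the endothelial cadherin Cdh5 read 150 to 257 (median 229), against 137, 138, 78.7, 176 and 131 (0.68, SE 0.17). The VEGF receptors Flt1 (0.56, SE 0.15) and Kdr (0.45, SE 0.14), the sialomucin Emcn (0.44, SE 0.14) and the factor Sox18 (0.53, SE 0.13) were also higher in NG. Pecam1 (0.17) and Tie1 (-0.25), which define the same cells, were not called, so the endothelial markers did not all move. NG sample 026 had the highest Vwf, at 927, against 190 to 285 in the other NG samples and 163 to 342 in DRG.

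Mural cells, the pericytes and smooth muscle of vessels, did not share that lean. Of 9 genes tested, 1 was higher in NG and 2 in DRG, against 20.6% and 16.9% of all genes. The pericyte marker Rgs5 read 27.5 to 51.5 in NG (median 45.6), against 111, 102, 76.7, 90.8 and 100.2 in DRG (-1.01, SE 0.15). Pdgfrb, the pericyte receptor for PDGF, was dim in both (22.0 to 56.1 in NG and 43.5 to 82.9 in DRG; -0.61, SE 0.20), and its call was lost without DRG sample 026 or 070 (adjusted p = 0.0555 and 0.0815). Of 22 genes of fibroblasts and matrix, 3 were higher in NG and 0 in DRG, both below the shares of all genes. The defining genes Col1a1 (0.45, adjusted p = 0.0593; -0.06 as the mean over its tested probe sets), Col1a2 (-0.27) and Dcn (-0.27) were not called. Gsn, an actin-severing protein, read 1246 to 2073 in NG (median 1617), against 712, 749, 841, 1030 and 763 in DRG (0.98, SE 0.13), and the proteoglycan Lum differed by 0.65 (SE 0.16). Without the 3 samples with high fat genes, NG had 2 higher matrix genes and DRG had 4.

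**Figure D3:**
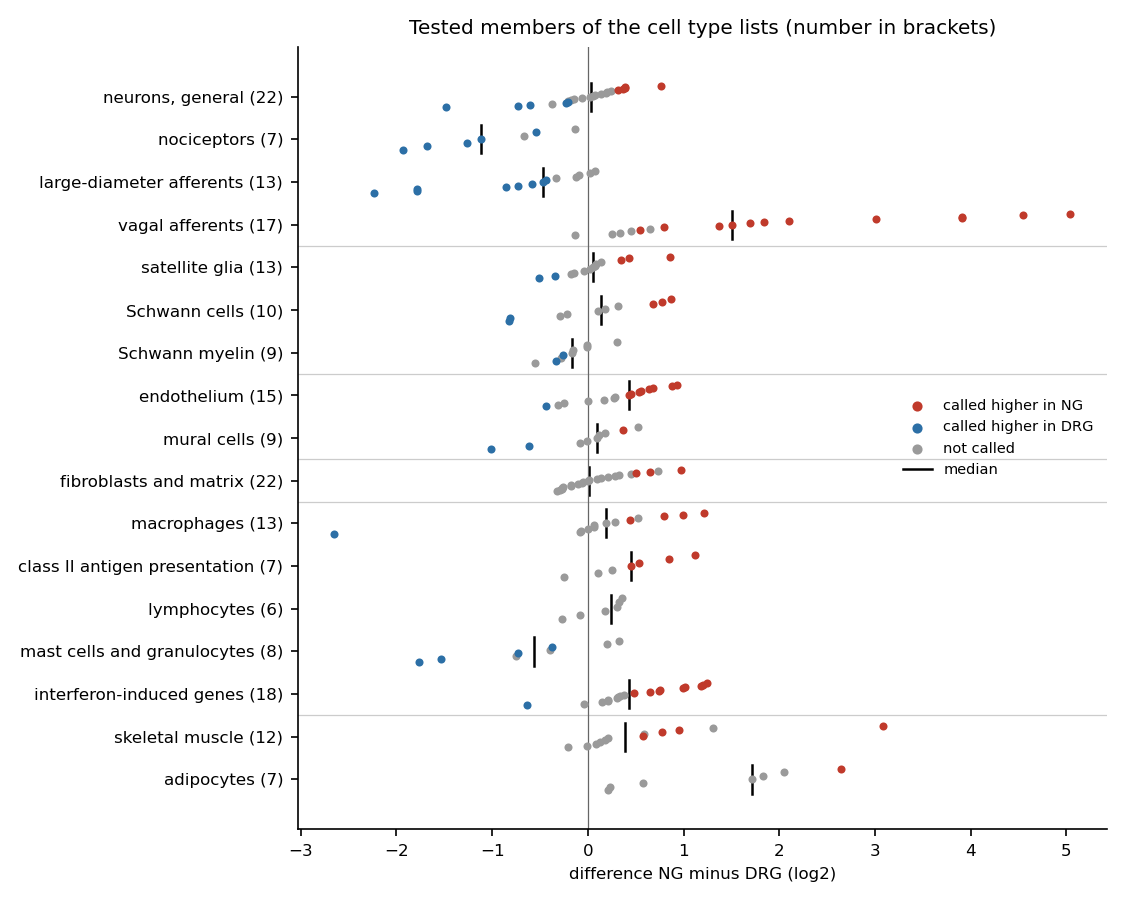
Difference NG minus DRG (log2, horizontal axis) of every tested member of 17 cell type lists, with the number tested in brackets, a bar at the list's median, and colour for the call. The vagal list lies to the right, the nociceptor and large-diameter lists to the left, and the glial and matrix lists around 0.

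Immune genes were split by cell type and programme. Over 5 immune lists 52 genes were tested, of which 17 were higher in NG and 6 in DRG, against 20.6% and 16.9% of all genes. With the same median on every array, or with weighted arrays, the DRG count was 10. Of 13 macrophage genes tested 4 were higher in NG. Ctss, a lysosomal protease, read 228 to 340 in NG (median 299), against 157, 143, 112, 175 and 108 in DRG (0.999, SE 0.14). The complement genes C1qa (1.22, SE 0.24) and C1qc (0.80, SE 0.16) were higher in NG, with C1qa at 56.1 to 90.1 in NG and 60.7, 29.7, 10.2, 32.0 and 12.9 in DRG, while C1qb (0.06), Csf1r (0.52, adjusted p = 0.0538) and Cd68 (0.19) were not called. Adgre1, which encodes F4/80, lay below the filter in both ganglia, and 14 of 27 macrophage genes on the array were not tested. Ly86, the list's only DRG-higher member, read 21.7 to 59.2 in NG (median 28.4), against 442, 305, 180, 199 and 257 in DRG (-2.65, SE 0.21), and it was higher in DRG among captured neurons too (-1.97, SE 0.25), where it was dimmer than in whole ganglia (captured minus whole -1.19).

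Of 7 class II antigen presentation genes tested 4 were higher in NG and 0 in DRG. H2-Aa read 379 to 798 in NG (median 687), against 313, 295, 182, 393 and 268 in DRG (1.12, SE 0.20), and H2-Ea read 213 to 424 in NG (median 271), against 140, 150, 127, 215 and 150 in DRG (0.85, SE 0.16). Each of the 2 genes overlapped between the groups by 1 DRG sample, 070. The calls of H2-Ab1 (0.54, SE 0.15) and H2-Eb1 (0.45, SE 0.14) were less firm. That of H2-Ab1 was lost without NG samples 023, 026 and 046 (adjusted p = 0.0729 by limma) and in a joint fit with captured neurons (0.0756). That of H2-Eb1 was lost without DRG sample 037 (0.0548). Without NG samples 023, 026 and 046 this list had 3 calls in favour of NG and 1 in favour of DRG. Cd74, the invariant chain (0.26), and H2-DMa (-0.24) were not called. None of 6 lymphocyte genes tested was called, with differences from -0.27 to 0.36, and Cd3e lay below the filter at 11.7 to 15.1 in NG and 8.97 to 14.4 in DRG.

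Of 26 genes induced by interferon 18 were tested, and 9 were higher in NG and 1 in DRG, against 20.6% and 16.9% of all genes. The NG count was 9 or 10 when 1 sample was left out, and 9 without the 3 samples with high fat genes. Among the immunity-related GTPases, Igtp read 329 to 474 in NG (median 466), against 153, 200, 197, 166 and 166 in DRG (1.25, SE 0.12), and Irgm1 read 81.5 to 167 in NG (median 107), against 50.3, 57.0, 46.4, 56.0 and 42.1 in DRG (1.01, SE 0.16). The guanylate-binding protein Gbp3 read 355 to 561 in NG (median 454), against 169, 188, 191, 237 and 192 in DRG (1.21, SE 0.12), and Gbp2 differed by 0.74 (SE 0.12). The immunoproteasome subunits Psmb8 (0.65, SE 0.10) and Psmb9 (0.75, SE 0.15), the factor Irf1 (0.48, SE 0.14) and Ifit1 (1.19, SE 0.21) and Ifit3 (0.99, SE 0.17) were also higher. Ifit2 went the other way (-0.63, SE 0.18), a call that was lost without the 3 samples with high fat genes (adjusted p = 0.0758). The class I genes B2m (0.38), H2-K1 (0.21) and H2-D1 (0.30) were not called, nor were Irf7 (0.15) and Mx2 (0.21).

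The called genes of mast cells and granulocytes were all higher in DRG, and the mast cell markers Cma1 and Cpa3 were not among them. Of 8 tested 0 were higher in NG and 4 in DRG, against 20.6% and 16.9% of all genes (3 to 6 in DRG when 1 sample was left out). The calgranulin gene S100a8 read 21.9 to 34.4 in NG (median 25.3), against 174, 125, 64.5, 93.9 and 69.1 in DRG (-1.53, SE 0.20). Its partner S100a9 did not pass the filter, as all NG values and DRG sample 037 lay below the 40th percentile of their arrays (41.24 for sample 037). It read 4.8 to 23.7 in NG and 174, 145, 35.9, 115 and 57.8 in DRG. The 5 DRG samples stood in the same order as for S100a8. Camp, a neutrophil granule peptide, read 58.4 to 129 in NG (median 79.6), against 210, 201, 83.8, 168 and 122 in DRG (-0.73, SE 0.20). Kit, the receptor of mast cells and also of a class of sensory neurons, read 143 to 425 in NG (median 193), against 648, 896, 810, 719 and 731 in DRG (-1.76, SE 0.23) and was higher in DRG among captured neurons as well (-2.65, SE 0.33). Of the mast cell proteases, the tryptase Tpsb2 was called higher in DRG by a small margin (134 to 195 in NG and 170 to 249 in DRG; -0.37, SE 0.13, adjusted p = 0.0302). That call was lost without any 1 of NG samples 020 and 026 and DRG samples 019, 026 and 084 (adjusted p from 0.0522 to 0.0918). Cma1 (-0.39, adjusted p = 0.0548) was not called, and Cpa3 lay below the filter.

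Genes of fat tissue were high in some NG samples and not in others. Adipoq, the hormone of fat cells, read 1293 in NG sample 023, 582 in 026 and 1350 in 046, against 22.4 to 71.8 in the other 4 NG samples and 8.28 to 61.1 in DRG. Car3 read 1930, 659 and 1175 in the same 3 samples, against 22.1 to 102 in the other 4 and 3.73 to 68.0 in DRG, and Lpl, the lipoprotein lipase, read 930, 469 and 582, against 28.3 to 87.6 and 25.7 to 51.1. Ucp1, the uncoupling protein of brown fat, was highest in sample 023, at 196, against 12.6 to 25.5 in DRG. The means differed by 1.72 to 2.04, but the spread within NG kept Adipoq (adjusted p = 0.227), Car3 (0.18) and Lpl (0.126) from being called. Cidea, a lipid droplet protein, was the only member of the list that was called. It read 408, 284 and 273 in the same 3 samples and 86.3 to 153 in the other 4 NG samples, against 18.9, 4.83, 28.4, 24.2 and 27.7 in DRG (2.64, SE 0.33). It was thus above DRG in all 7 NG samples, it was still called without those 3, and it was higher in NG among captured neurons (1.89, SE 0.39).

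Skeletal muscle and blood genes showed a similar spread. The muscle actin Acta1 read 1343 in NG sample 026, 672 in 046 and 455 in 036, against 139 to 189 in the other 4 NG samples and 117, 89.8, 92.5, 213 and 104 in DRG (adjusted p = 0.0941). The globin gene Hba-a1 read 2183 in NG sample 026, against 210 to 818 in the other NG samples and 231 to 547 in DRG (adjusted p = 0.585). Of 12 muscle genes tested 4 were higher in NG, against 20.6% of all genes. The myosin light chain Myl1 led them, at 211 to 574 in NG (median 437), against 42.9, 39.97, 28.7, 35.3 and 37.7 in DRG (3.08, SE 0.18). Myl1 was above DRG in all 7 NG samples and was higher in NG among captured neurons as well (1.95, SE 0.24). The defining muscle genes Ckm and Tnnt3 lay below the filter, and Mylpf was not called (0.09). Thyroid and parathyroid markers, of tissue near the NG, lay below the filter (Tg at 2.72 to 5.09 in NG and 2.65 to 5.34 in DRG).

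**Figure D4:**
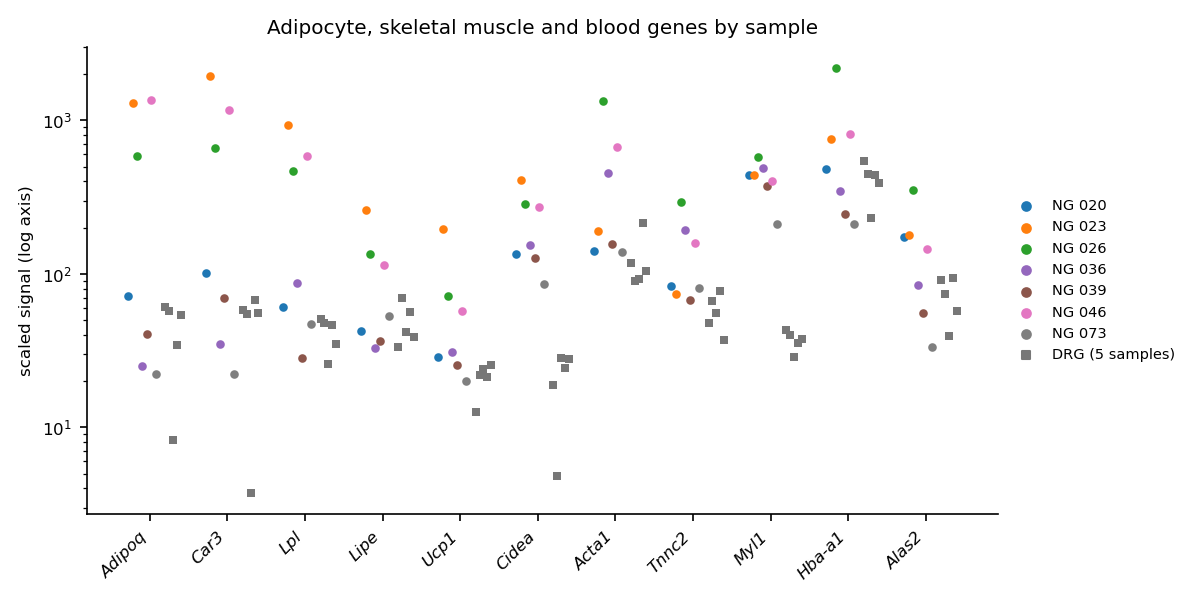
Scaled signal (log axis) of adipocyte, skeletal muscle and blood genes in each NG sample (coloured circles) and in the 5 DRG samples (grey squares). Adipoq, Car3 and Lpl stand out in NG samples 023, 026 and 046 and Acta1 and Hba-a1 in NG sample 026, while Cidea and Myl1 are above DRG in all 7 NG samples.

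Beyond the cell types, the respiratory chain of mitochondria had 57 subunits tested. Of these 24 were called in favour of NG and 5 in favour of DRG, against 20.6% and 16.9% of all genes. The NG count was 21 to 27 when 1 sample was left out, but 15 without the 3 samples with high fat genes. The NG sums ran from 52440 to 69140, against 49790 to 53750 in DRG. The median difference was 0.14, while equal medians moved that of all probe sets by -0.102. Among captured neurons 6 of 55 subunits tested were higher in NG and 9 in DRG. Ndufa9, a complex I subunit, read 2242 to 3544 in NG (median 3314), against 1337, 1579, 1673, 1668 and 1285 in DRG (0.97, SE 0.13). Uqcrq, of complex III, read 788 to 1744 in NG (median 1073), against 668, 541, 505, 671 and 562 (0.98, SE 0.16). Immediate early and stress genes also went both ways, with counts near the shares of all genes (20.6% in NG and 16.9% in DRG). Of 20 tested 6 were higher in NG, among them Ier2 (1.05, SE 0.14) and Atf3 (0.73, SE 0.15), which read 314 to 584 in NG (median 364) and 216, 186, 211, 278 and 248 in DRG. In DRG 3 were higher: Jun (-0.91, SE 0.21) and the heat shock genes Hspa1b (-1.36, SE 0.19) and Hspa1a (-0.89, SE 0.22), which are near-identical copies and may share probes.

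The captured neurons gave a second reading of the same genes in other samples. Averaged over both ganglia, captured minus whole signal had a median of -1.02 over the glial genes, -0.80 over the vascular genes and -0.55 over the immune genes, against -0.17 over the neuronal genes and -0.03 over all genes. Of the 1138 NG-higher genes that were also tested in captured neurons, 280 (24.6%) were called higher in NG there and 84 (7.38%) were called higher in DRG. Of the 954 DRG-higher genes tested there, 275 (28.8%) were called higher in DRG and 45 (4.72%) higher in NG. Of all 5532 genes tested in captured neurons, 11.1% were called higher in NG and 12.2% higher in DRG. In a joint fit of the 4 groups, the ganglion difference itself differed between whole ganglia and captured neurons for 18.2% of 8309 probe sets, 871 with the larger NG minus DRG difference in whole ganglia and 641 with the smaller.

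Several list genes took opposite directions in the 2 preparations. Sox2 differed by 0.86 in whole ganglia and by -1.63 (SE 0.28) in captured neurons (interaction 2.48, SE 0.27, adjusted p = 5.22e-07). Cdh5 differed by 0.68 and -1.80 (SE 0.24; interaction 2.47, SE 0.27, adjusted p = 4.7e-07), Eng by 0.93 and -0.98 (SE 0.32; interaction 1.91, SE 0.39, adjusted p = 0.00103), and Cdh2, the N-cadherin gene, by 0.78 and -0.60 (SE 0.18; interaction 1.38, SE 0.24, adjusted p = 0.000239). Captured minus whole signal was -3.03 for Sox2, -2.04 for Cdh5, -1.54 for Cdh2 and -1.07 for Eng, so these 4 genes were much dimmer in captured neurons. Neuronal, channel and ribosomal genes took opposite directions as well. The secretory granule gene Scg2 differed by 0.36 and -0.79 (SE 0.15; interaction adjusted p = 2.04e-05), the potassium channel Kcnj9 by 0.81 and -1.68 (SE 0.23; interaction adjusted p = 4.96e-05), and the ribosomal protein genes Rpl8 by 0.37 and -0.36 (SE 0.12) and Rpl10a by 0.47 and -0.41 (SE 0.14). Cacng2, an auxiliary subunit of AMPA receptors, went the other way, at -0.93 and 0.87 (SE 0.23). The calls of Kcnj9 and Rpl10a in whole ganglia were weak (adjusted p = 0.0358 and 0.0429 by limma). Both were lost in many settings, for example without DRG sample 070 (0.111 and 0.112). The whole-ganglion calls of Scg2 and Rpl8 were lost with equal medians (0.0936 and 0.119). Kcnk2 differed by 0.51 and -0.85 (SE 0.25; interaction 1.37, SE 0.28, adjusted p = 0.000974). Among the interferon genes, Gbp3 (1.21) and Igtp (1.25) were higher in whole NG and were not called in captured neurons (-0.36, SE 0.17, and 0.24, SE 0.19), and the interaction was called for both (adjusted p = 6.17e-06 and 0.00146). Trpc4, at 1.84 in whole ganglia, was at -0.02 (SE 0.38) in captured neurons (interaction adjusted p = 0.00223).

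Other neuronal genes differed in size between the preparations. Tac1 differed by -1.12 in whole ganglia and -4.03 (SE 0.46) in captured neurons, and Scn1a by -0.72 and -4.46 (SE 0.19; interaction adjusted p = 5.44e-10). Scn10a, at -0.54 in whole ganglia, was at 0.02 (SE 0.10) in captured neurons (interaction adjusted p = 0.00936). Ntsr1 differed by 3.91 and 5.15 (SE 0.20), and Crhr2 by 3.91 and 2.33 (SE 0.26), with interaction adjusted p = 0.00323 and 0.000575. Ddc (5.04 and 4.59), Gpr65 (4.54 and 4.65), Hoxb5 (3.11 and 3.24) and Htr3a (3.02 and 3.19) differed by nearly the same amount in both preparations, and their interactions were not called. An interaction that was not called does not show that the differences were equal. For Gpr65, Crhr2 and Ntsr1 the whole DRG values lay below the filter, so these sizes, and how they compare between preparations, depend on the pseudocount.

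**Figure D5:**
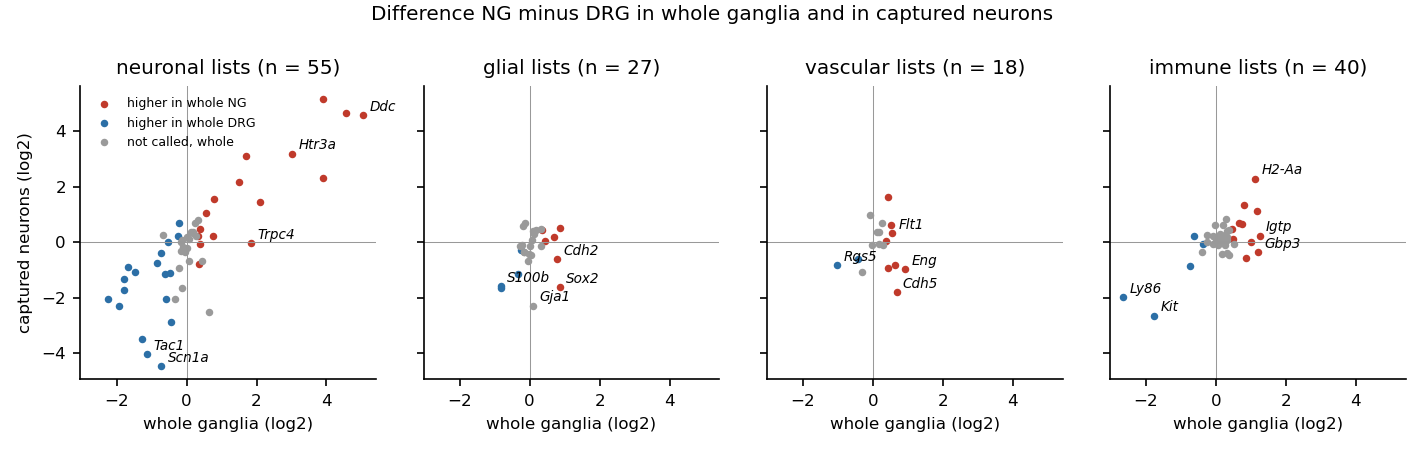
Difference NG minus DRG (log2) of the list genes tested in both preparations, in whole ganglia (horizontal axis) and captured neurons (vertical axis), by class of list, with colour for the call in whole ganglia. Ddc and Htr3a are high and Tac1 and Scn1a low in both preparations, while Sox2, Cdh2, Eng and Cdh5 lie in the quadrant higher in whole NG and lower in captured NG.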

How the data were processed

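The authors deposited linear signal intensities. The submitters' processing notes name MAS5, with no version. MAS5 combines perfect-match and mismatch probes into 1 intensity per probe set. Detection calls were not used, so low values can be background. Precision is limited by the number of arrays. Deposited trimmed means differed between arrays (174.9 to 408.3 in NG, 286 to 344.5 in DRG), so all arrays were first multiplied to a common 2% trimmed mean of 264.8.

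The array held 12488 probe sets, of which 66 were controls. Of the 12422 others, 10833 had 1 gene symbol in the platform annotation, 396 several and 1193 none. Genes were named only from probe sets with 1 symbol, and 10817 of these matched RefSeq genes of assembly GRCm38.p6 by Entrez identifier. Where a gene had several probe sets (946 genes), values are those of the probe set with the highest mean log2 signal; for 14 genes another probe set was called the opposite way.

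Signals were analysed as log2(signal + 12.3), where 12.3 is the 20th percentile of all values, so folds of dim genes are understated. Probe sets had to exceed the 40th percentile of an array on 5 or more arrays, and 7698 did. NG was compared with DRG with limma 3.58.1 (lmFit, then robust eBayes with a trend) under R 4.3.3, two-sided, with Benjamini-Hochberg adjustment over all probe sets tested and a threshold of 0.05. A joint limma fit with 5 NG and 5 DRG arrays of captured neurons gave the interaction. The 4 groups shared 1 estimate of the spread there, which can understate the spread of captured neurons. For Sox2 the interaction SE was 0.271, against 0.277 for the captured difference alone. Values of captured neurons come from a fit of those 10 arrays alone. The code was tested on simulated data. No sample pair was a duplicate (highest correlation 0.986).

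The gene lists (23 lists and 10 symbol families) and the comparison itself were chosen with earlier results of these data known. Genes named are the 15 per direction with the largest difference among called genes with separate groups and a signal over 248.8 in the higher one, up to 4 called members per direction of each list, the defining markers and every Hox gene; other names were chosen after their values were seen. Alternatives covered scaling, pseudocount, filter, moderation, array weights, a joint fit, the mean over a gene's probe sets and leaving out samples; leaving out the 3 NG samples with high fat genes was added after the values were seen.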

Additional observations from a re-analysis of the deposited data

Results flagged for a closer look

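Of 366 groups of samples examined for the genes described, 31 (8.47%) held a highest or lowest sample that stood apart from the rest by Dixon's criterion. Its nominal rate is about 1 in 20. The criterion was applied to linear signals, and some genes were picked after their values were seen, so that rate is no valid comparison. NG sample 073 was the one most often apart, and Zbtb20 and Snhg11 were among the genes picked that way. It was the highest NG sample for Scn1a (904), Zbtb20 (425), Lcp1 (364), Snhg11 (860), Ly86 (59.2), Cdh11 (154) and Kdr (203) and the lowest for Scg2 (1329), and for Scn1a its signal was slightly above the highest of DRG. In NG sample 026 Hba-a1 (2183) and Vwf (927) were apart, and in NG sample 023 Ucp1 (196). In NG sample 046 Hspa1a (1103) and Cd3e (15.1) were high, in NG sample 036 Hoxb7 (93.3) and S100a8 (34.4), and in NG sample 020 Sh3gl3 (1376). Sox18 was low in NG sample 039 (95.8).

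Among DRG samples, 037 was apart for Chgb (3380), Hspa1b (431), Patj (351), Mog (16.4) and, as the lowest, Car3 (3.73). Sample 070 was high for Acta1 (213), H2-Ea (215) and Hoxb4 (18.4) and low for Fhod3 (139). Sample 019 was high for Stmn2 (5897) and Syt17 (26.3) and low for Htr3a (458). Gap43 was high in sample 026 (2792) and Acpp in sample 084 (327).

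For 11 of the genes described the ganglion difference was called in opposite directions in whole ganglia and captured neurons, and the interaction was called too. The difference in whole ganglia minus that in captured neurons was 2.48 for Sox2, 2.47 for Cdh5, 1.91 for Eng, 1.38 for Cdh2, 1.37 for Kcnk2, 2.48 for Kcnj9, 1.15 for Scg2, 0.89 for Rpl10a, 0.73 for Rpl8, -1.81 for Cacng2 and -2.31 for Xist.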

How the results depend on the processing

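No paired analysis was possible because the whole NG and DRG samples share only 1 number, 026. Captured NG and DRG share 4 numbers, but same-numbered arrays did not deviate together (correlations of -0.106 to 0.111, against -0.16 to 0.176 for other numbers), and their fits treat the 10 arrays as independent. With those numbers as a replicate block, an alternative added after seeing the data that drops the 2 unshared arrays, the interaction was called for 1570 probe sets. Probe sets higher in NG numbered 1283 to 1600 and those higher in DRG 1039 to 1304 when 1 sample was left out, the lowest counts without DRG sample 026 and the highest without NG sample 073. The split was 1508 to 1219 with equal trimmed means, 1339 to 1347 with quantile normalization and 1020 to 1532 with equal medians, as the median difference of all probe sets moved by -0.051 and -0.102. Small differences therefore depend on the scaling. Without NG samples 023, 026 and 046, an alternative chosen after seeing the data, 1117 and 990 were called, and 850 of 1215 NG-higher genes (70%) and 744 of 997 DRG-higher genes (74.6%) were still called. The interaction was called for 1512 probe sets, 1318 to 1543 with 1 sample left out and 1210 without those 3. With a limit of 1 on the log2 scale, 3.21% of NG-higher and 1.91% of DRG-higher genes were brighter in captured neurons (2.14% of all genes), and 11.8% and 15.5% brighter in whole ganglia (10.9% of all); with a limit of 2 these were 0%, 0%, 2.22% and 2.11% (0% and 1.97% of all). Of 175 named genes 144 were called. Of these 133 were tested in all 22 settings, and 104 of them were called in each; 30 of the 144 lost the call in at least 1 setting, 10 others were not tested in some settings and called in the rest, and 0 changed direction. With the mean over a gene's tested probe sets, 7 of 29 named genes with several probe sets moved by more than 1 SD, among them Prkcq (-3.14), Pvalb (-1.36) and Hoxd8 (-1.78). Among the 30 were Prph (limma adjusted p = 0.137 without those 3 samples and 0.166 with equal medians), Snap25, Tubb3, Pdgfrb, Ifit2, Pmp22, Kcnj9, Rpl10a, Scg2 and Rpl8. The cause was not tested. MAS5 signals near background limit what can be seen of dim genes.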

Other observations

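Xist, the transcript of the inactive X chromosome, which is outside the gene lists and was picked after its values were seen, read 247 to 483 in NG (median 308), against 541, 407, 487, 557 and 581 in DRG (difference -0.66, SE 0.14, adjusted p = 0.00179 by limma). The Y-linked genes Kdm5d and Uty lay below the filter, at 3.37 to 21.7 in NG and 3.96 to 24.5 in DRG. The labels give no sex for either group.

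NG sample 073, which lay nearest to DRG on the first principal component, had the highest signals among NG samples for 3 transcripts picked after their values were seen. It read 860 for Snhg11, 425 for Zbtb20 and 343 for Clk4, against NG medians of 222, 99.9 and 98.6. Zbtb20 read 306, 293, 272, 321 and 250 in DRG and was called higher there (difference -1.06, SE 0.29, adjusted p = 0.00945 by limma), and the other 2 were not called.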
